A study of Homo sapiens with 6 samples.

Results

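The E2F transcription factors E2F1 to E2F8 and the pocket proteins RB1 and RBL1, 10 of 19864 protein-coding genes, were followed through 3 lists of nascent transcription peaks from K562 cells. The genes were taken by name, and peaks were attached to them by position: a start peak lay within 500 bp of an annotated transcript start of the gene, and a distal peak lay within 50 kb of the gene body with no annotated start of any gene within 500 bp. The family was selected on the peaks it has in these same lists, E2F8 among its members for the way the lists divide its start, so counts over the 10 genes are given as description and no test was made on them.

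PRO-seq is a run-on assay in which polymerases that sit on DNA in permeabilized cells add a biotin-tagged nucleotide to their RNA, which is then captured and sequenced. The study set a quick version, qPRO-seq, against the published one. All cells were untreated K562, an established human leukaemia line, with 2 biological replicates per group kept 3 or more passages apart. The PRO-seq 1M group was made by the published method from 1M cells, and the qPRO-seq 1M and qPRO-seq 250k groups were made by the quick method from 1M and 250k cells. The labels state that the 1M libraries had 11 PCR cycles and the 250k libraries had 14, and that the published protocol used 3 bead purifications against 1. Input and PCR cycles cannot be told apart between the qPRO-seq groups.

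Each group was represented by 1 list of peaks called by dREG, a program that recognises sites of transcription initiation from run-on reads on both strands. On chromosomes 1 to 22 and X, PRO-seq 1M held 24707 peaks, qPRO-seq 1M held 38177 and qPRO-seq 250k held 15562. Read depth was unknown, and a single list per group leaves no spread between replicates. Each peak carries a deposited dREG score, given here as a percentile among all peaks of its own list. Peaks are called strong or weak by this score, which is not a measured amount of transcription. Percentiles from lists of different lengths stand side by side and are not read as a change between protocols. The labels call K562 lymphoblastoid. The erythroid and myeloid markers GATA1, TAL1, KLF1, EPOR, HBG1, HBG2 and HBE1 had a start peak in every list. The lymphoid markers PAX5, CD79A, MS4A1 and CD3E had none in any list.

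E2F factors bind DNA, most of them as dimers with a DP protein, and set the level of genes for DNA replication and cell division. RB1 and its relative RBL1 bind E2F factors and hold those genes down until cyclin-dependent kinases phosphorylate the pocket proteins. E2F1, E2F2 and E2F3 are known as activators, E2F4 and E2F5 as repressors that work with pocket proteins, E2F6 as a repressor that works with Polycomb proteins, and E2F7 and E2F8 as atypical repressors that bind without DP. Several E2F genes are themselves targets of E2F factors.

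The promoter windows that held a consensus E2F element are printed first, because they carry the letters the family recognises. The front starts of E2F5, E2F8 and RB1 were not searched. Windows came from RefSeq (GRCh38.p14), run 5′ to 3′ on the gene's strand, and reach from 250 bases before the RefSeq start through the first 50 bases from it. Capitals mark the E2F motifs. The search covered TTTGGCGC, TTTCCCGC, TTTGGCGG, TTTCCCGG, TTTGCCGC and TTTCGCGC on both strands, and in the windows printed no matches overlapped each other.
E2F1, chr20:33686336-33686635, minus strand: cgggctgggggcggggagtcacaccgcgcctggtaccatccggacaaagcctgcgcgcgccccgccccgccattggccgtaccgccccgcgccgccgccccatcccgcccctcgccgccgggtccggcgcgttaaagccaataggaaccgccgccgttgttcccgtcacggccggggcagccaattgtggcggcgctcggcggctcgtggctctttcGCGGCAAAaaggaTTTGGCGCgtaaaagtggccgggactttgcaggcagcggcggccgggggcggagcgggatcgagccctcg
E2F2, chr1:23531184-23531483, minus strand: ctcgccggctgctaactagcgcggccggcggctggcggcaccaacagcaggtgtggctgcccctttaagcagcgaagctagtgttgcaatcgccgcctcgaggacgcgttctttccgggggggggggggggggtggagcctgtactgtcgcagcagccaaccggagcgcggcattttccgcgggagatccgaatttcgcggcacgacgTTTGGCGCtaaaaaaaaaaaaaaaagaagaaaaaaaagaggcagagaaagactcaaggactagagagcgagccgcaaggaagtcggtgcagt
E2F3 upstream start, chr6:20401629-20401928, plus strand: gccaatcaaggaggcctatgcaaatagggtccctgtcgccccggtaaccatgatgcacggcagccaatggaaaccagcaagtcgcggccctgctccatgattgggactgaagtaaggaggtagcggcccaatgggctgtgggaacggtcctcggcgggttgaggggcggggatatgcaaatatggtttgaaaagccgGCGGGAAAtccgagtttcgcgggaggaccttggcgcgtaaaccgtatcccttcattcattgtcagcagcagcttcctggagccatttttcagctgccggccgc
E2F6, chr2:11466112-11466411, minus strand: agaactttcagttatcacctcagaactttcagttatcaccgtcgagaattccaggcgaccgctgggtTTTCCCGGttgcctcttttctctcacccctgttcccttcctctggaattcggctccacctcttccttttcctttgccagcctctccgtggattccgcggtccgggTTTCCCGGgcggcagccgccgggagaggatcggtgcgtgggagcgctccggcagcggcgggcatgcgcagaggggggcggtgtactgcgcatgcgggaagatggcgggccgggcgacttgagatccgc
RBL1, chr20:37095948-37096247, minus strand: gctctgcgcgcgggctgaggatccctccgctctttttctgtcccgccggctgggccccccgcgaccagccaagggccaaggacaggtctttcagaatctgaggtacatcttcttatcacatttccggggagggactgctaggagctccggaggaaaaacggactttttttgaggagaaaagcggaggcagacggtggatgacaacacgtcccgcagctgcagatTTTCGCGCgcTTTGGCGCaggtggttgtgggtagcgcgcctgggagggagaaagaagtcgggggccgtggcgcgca

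The table matched 8 of the 10 genes, with 9 windows, since E2F3 has a window at each of its main starts. E2F5 and E2F8 have no entry. The RB1 window belongs to a start inside the gene with no peak in any list. Of the 9 windows, 5 held an E2F motif, as did 5.33% of 35116 promoter windows of the same length in the table and 9.38% of the 11958 windows touched by a PRO-seq 1M peak. Each motif alone was rare: TTTGGCGC and TTTGGCGG were each in 0.652% of all windows, TTTCCCGC in 1.63%, TTTCCCGG in 1.48%, TTTGCCGC in 0.607% and TTTCGCGC in 0.515%. E2F1 held 2 motifs and RBL1 held 2, E2F6 held TTTCCCGG at 2 places, and E2F2 and the upstream start of E2F3 held 1 each. All these motifs lay inside a peak of PRO-seq 1M and of qPRO-seq 1M, and those of every gene except E2F1 also lay inside a peak of qPRO-seq 250k. In RBL1 the qPRO-seq 250k peak centre was 1 base from the middle of TTTCGCGC and 11 bases from that of TTTGGCGC. These motifs lay 201 and 211 bases from the PRO-seq 1M centre, and 121 and 131 from that of qPRO-seq 1M. In E2F1 the PRO-seq 1M peak centre was 1 base from TTTGGCGC, and the qPRO-seq 1M centre was 179 bases away. The E2F2 motif lay 49 bases from the centre in qPRO-seq 1M, 119 in PRO-seq 1M and 129 in qPRO-seq 250k. The E2F3 motif lay within 29 bases in every list, and those of E2F6 between 15 and 200. Whether centres lie nearer to motifs than to other bases was not tested.

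The downstream window of E2F3 and the windows of E2F4, E2F7 and RB1 held none of the 6 motifs. Whether motifs go with scores was not tested. The window of E2F4, printed as an example without a motif, was:
E2F4, chr16:67191905-67192204, plus strand: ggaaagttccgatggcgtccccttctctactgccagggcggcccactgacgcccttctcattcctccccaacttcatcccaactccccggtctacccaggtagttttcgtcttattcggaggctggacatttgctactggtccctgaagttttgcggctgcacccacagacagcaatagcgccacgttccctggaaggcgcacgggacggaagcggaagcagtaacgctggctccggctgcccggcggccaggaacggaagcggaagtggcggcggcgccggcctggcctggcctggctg

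CCAAT, the core of the element bound by the trimeric factor NF-Y, was found on either strand in 34.6% of all windows. E2F7 held it at 4 places, the upstream window of E2F3 at 4 and E2F1 at 3. TTTGAA, the core of the cell cycle homology region bound by DREAM and related complexes, was in 15.2% of all windows, and here in the upstream window of E2F3 alone. The GATA motifs AGATAA and TGATAA, searched because GATA1 is an erythroid factor of this line, were in 16.3% of all windows taken as a pair. TGATAA stood at 2 places in E2F6, at 1 in RBL1 and at 1 in the RB1 window, which has no peak.

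All 10 genes had a start peak in PRO-seq 1M, against 52.9% of protein-coding genes, and all 10 also in qPRO-seq 1M, against 54.5%. In qPRO-seq 250k 9 of 10 had one, against 44.0%, and E2F1 was the gene without. A start peak in all 3 lists was held by 9 of the 10, against 43.1% of protein-coding genes. The members had 18, 19 and 12 start peaks in the PRO-seq, qPRO-seq 1M and qPRO-seq 250k lists, of which 7, 10 and 7 scored below the median of their list. More than 1 start peak was held by 6 members in PRO-seq 1M (49.6% of protein-coding genes with a start peak), 5 in qPRO-seq 1M (61.6%) and 2 in qPRO-seq 250k (32.7%). The strongest start peak of each member had a median percentile of 82.1 in PRO-seq 1M, 79.6 in qPRO-seq 1M and 51.7 in qPRO-seq 250k. The same medians over all protein-coding genes with a start peak were 76.4, 80.7 and 68.2.

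**Figure D1:**
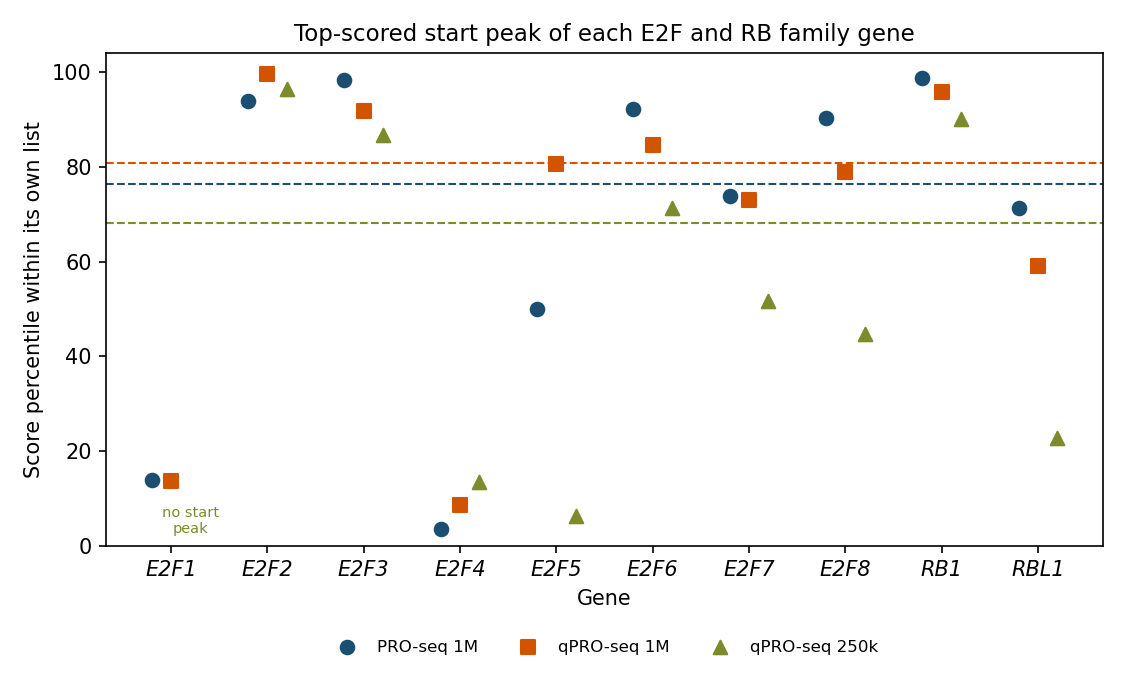
Score percentile (vertical axis, within each list) of the strongest start peak of each member (horizontal axis), 1 point per list, with dashed lines at the median over all protein-coding genes that have a start peak. RB1, E2F2 and E2F3 lie at 86.7 or above in every list, E2F4 lies at 13.5 or below, and E2F1 has no point for qPRO-seq 250k.

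The top of the order within the family was much the same in the 3 lists, while the bottom differed. RB1, E2F3 and E2F2 took the top places in each list, with E2F2 first in both qPRO-seq lists and RB1 first in PRO-seq 1M. E2F4 was last in PRO-seq 1M and qPRO-seq 1M, and E2F5 was last in qPRO-seq 250k. With no replicate values, whether neighbours in this order differ beyond replicate spread was not tested.

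Among the activators, E2F1 lies on chromosome 20, 33675683 to 33686404, on the minus strand, with a single annotated start. Its start was covered in PRO-seq 1M by a peak at 33686071 to 33686470 of percentile 13.9, and a neighbour of percentile 11.7 followed 20 bp upstream. In qPRO-seq 1M the start was covered by a peak at 33686391 to 33686740 of percentile 13.7. This list also held a peak at 33685711 to 33685970, whose edge is 434 bp downstream of the start and whose score was higher than that of 8 peaks of the list. In qPRO-seq 250k the peak nearest to the PRO-seq 1M start peak was 11400 bp away, at the start of the neighbouring gene NECAB3. The E2F1 start was thus called at low scores from 1M cells by either protocol and not called from 250k cells.

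E2F2 lies on chromosome 1, 23506430 to 23531220, on the minus strand. It had 1 start peak in PRO-seq 1M, at 23531111 to 23531640 with percentile 93.8. In qPRO-seq 1M the matching peak ran from 23531111 to 23531630 with percentile 99.5, and 20 bp further upstream stood a second of percentile 12.1, at 23531651 to 23531940. In qPRO-seq 250k the matching peak ran from 23531111 to 23531550 with percentile 96.3. All 3 lists ended this peak at the same base on its downstream side. The second qPRO-seq 1M peak was overlapped by neither other list, although the PRO-seq 1M peak ended 10 bp from it. A weak peak of percentile 4.1 downstream of the start, at 23530481 to 23530980 in qPRO-seq 250k, overlapped a qPRO-seq 1M peak of percentile 40.4 that lay 600 bp from the start, outside the window.

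E2F3 lies on chromosome 6, 20401906 to 20493715, on the plus strand, and has separate upstream and downstream starts 1773 bp apart, known for the E2F3a and E2F3b forms of the protein. At the upstream start PRO-seq 1M held 1 peak at 20401391 to 20402070 of percentile 98.3. qPRO-seq 1M held a peak at 20401571 to 20402070 of percentile 91.7 and, 20 bp before it, another at 20401211 to 20401550 of percentile 24.3. qPRO-seq 250k held 1 peak at 20401501 to 20402000 of percentile 86.7. The strong upstream peak was therefore present in all 3 lists, and the 2 qPRO-seq 1M peaks together spanned the single PRO-seq 1M peak.

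At the downstream start of E2F3 the division was the other way round. PRO-seq 1M held a peak at 20403251 to 20403840 of percentile 86.3 and a neighbour at 20402891 to 20403230 of percentile 3.0. qPRO-seq 1M held 1 peak at 20403021 to 20403840 of percentile 70.4, which overlapped both. qPRO-seq 250k held 1 peak at 20403221 to 20403830 of percentile 8.3. Within each list the upstream start scored above the downstream start. A further peak centred at 20404290 was present in qPRO-seq 1M (percentile 33.8) and qPRO-seq 250k (percentile 31.2), and PRO-seq 1M had no peak over it.

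Among the pocket-protein repressors, E2F4 lies on chromosome 16, 67192169 to 67198918, on the plus strand. Its single start peak had percentile 3.5 in PRO-seq 1M, 8.7 in qPRO-seq 1M and 13.5 in qPRO-seq 250k. The peaks were narrow, at 280, 320 and 280 bp, and lay over each other, with 260 of the 320 bp under any list shared by all 3. The start of E2F4 was thus found at the same place in every list, at low scores in each.

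E2F5 lies on chromosome 8, 85177225 to 85217158, on the plus strand. Its strongest start peak had percentile 50.0 in PRO-seq 1M, 80.5 in qPRO-seq 1M and 6.2 in qPRO-seq 250k. These peaks covered the first annotated start in all 3 lists, and 450 bp were shared by all. PRO-seq 1M had a second peak of percentile 7.9 at 85177631 to 85178090, just past an annotated start 387 bp into the gene, and neither qPRO-seq list overlapped it. This second peak also lay within 500 bp of a start of another gene, AC011773.1. The strongest peaks of all 3 lists lay within 500 bp of a start of AC011773.4.

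E2F6, the Polycomb-associated member, lies on chromosome 2, 11444375 to 11466177, on the minus strand, and its start was divided most finely. PRO-seq 1M held 3 start peaks, with percentile 92.2 at the gene start and 23.8 and 39.1 downstream of it. qPRO-seq 1M held 4, with 84.5 at the gene start, 31.0 and 19.9 downstream and 48.9 upstream. qPRO-seq 250k held the peak at the gene start alone, with percentile 71.2. The downstream peaks were laid out alike in both 1M lists, with every edge within 10 bp. The upstream peak, at 11466641 to 11467120, was in qPRO-seq 1M alone.

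Of the atypical repressors, E2F7 had the plainest start. It lies on chromosome 12, 77021247 to 77065580, on the minus strand, and held 1 start peak in each list, with percentiles of 73.9, 72.9 and 51.7 in the PRO-seq, qPRO-seq 1M and qPRO-seq 250k lists. The peaks were nested, and 79.4% of the bases under any of them were under all 3.

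E2F8 lies on chromosome 11, 19224063 to 19241620, on the minus strand, with annotated starts 22, 669 and 15542 bp downstream of the first. PRO-seq 1M held 2 start peaks 20 bp apart. One, at 19240841 to 19241410 with percentile 90.3, covered the start 669 bp downstream, and the other, at 19241431 to 19242070 with percentile 76.2, covered the first pair of starts. qPRO-seq 1M held only a peak at 19240631 to 19241410 of percentile 78.8, and qPRO-seq 250k only one at 19240711 to 19241410 of percentile 44.7. Both qPRO-seq peaks ended at 19241410, the base where the first PRO-seq 1M peak ended, and 210 bp short of the gene start.

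The centres of the shared E2F8 peak lay 490, 500 and 480 bp downstream of the gene start in the PRO-seq, qPRO-seq 1M and qPRO-seq 250k lists. The peak over the gene start, with its centre 30 bp upstream of it, was overlapped by neither qPRO-seq list although both came within 20 bp. Across the region PRO-seq 1M peaks covered 1210 bp, qPRO-seq 1M 780 bp and qPRO-seq 250k 700 bp. Bases under all 3 lists came to 570, 40.1% of the 1420 under any.

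How often other genes looked like E2F8 was counted over protein-coding genes with a start peak in all 3 lists. Their gene start lay inside a peak of PRO-seq 1M alone in 157 of 8566, 1.83%, and in 1 of the 9 members, E2F8. A PRO-seq 1M start peak that neither other list overlapped, with a peak of another list within 50 bp, made up 1.25% of 15343 start peaks and was found at 207 genes. The mirror pattern at E2F2, a qPRO-seq 1M start peak overlapped by neither with another list's peak within 50 bp, made up 2.2% of 18383 start peaks and was found at 459 genes. E2F8 was named for this pattern in advance, so its presence among the members carries no information about the family.

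RB1, the retinoblastoma protein gene, lies on chromosome 13, 48303726 to 48599436, on the plus strand. Its single start peak had percentile 98.8 in PRO-seq 1M, from 48303201 through 48304020, and 95.8 in qPRO-seq 1M, from 48303291 through 48304030. It had 90.1 in qPRO-seq 250k, from 48303331 through 48303950. The centres were within 56 bp of the gene start in each list. qPRO-seq 1M had another peak 576 bp before the start, of percentile 6.1, inside an intron of the divergent transcript RB1-DT. Of the 9 annotated starts, the 5 at the front of the gene lay inside these peaks and the 4 internal ones had no peak.

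RBL1, the p107 pocket protein, lies on chromosome 20, 36996349 to 37095995, on the minus strand. PRO-seq 1M held a peak of percentile 71.2 over the start and one of 53.0 downstream. qPRO-seq 1M held one of 59.0 over the start and one of 23.9 downstream. qPRO-seq 250k held 1 peak of percentile 22.7, at 37095851 to 37096190, which covered the start and bridged the 20 bp between the PRO-seq 1M peaks. Of the bases under any list in this region, 14.6% were under all 3. All start peaks of RBL1 also lay within 500 bp of a start of another gene, AL136172.1.

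**Figure D2:**
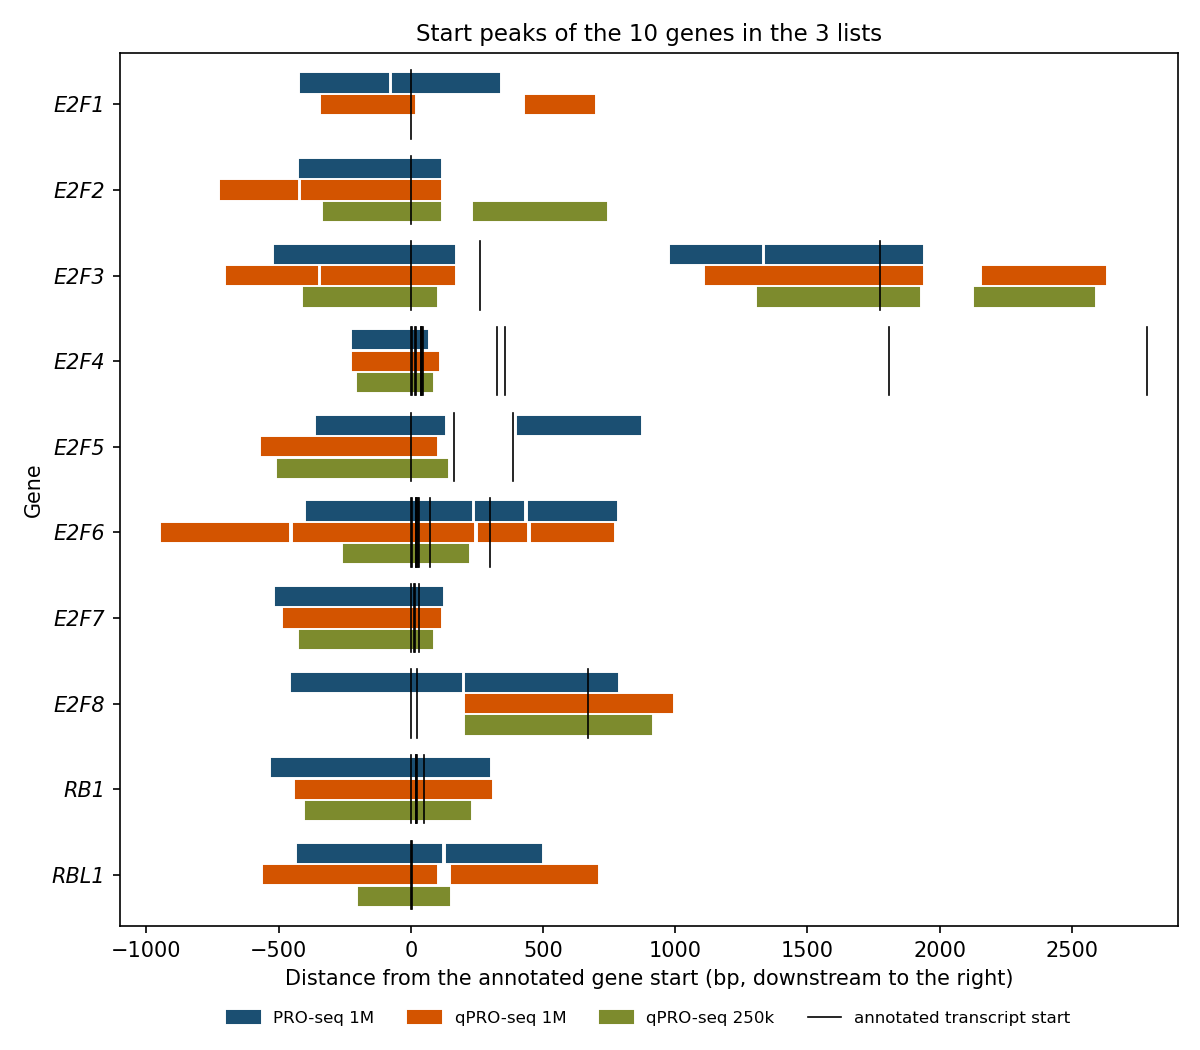
Start peaks of the 10 members in the 3 lists by distance from the gene start (bp, direction of transcription to the right), 1 row per list and gene; bars are peaks and vertical lines annotated starts. E2F4, E2F7 and RB1 keep 1 peak per list, E2F6 is cut into 3, 4 and 1 peaks, and E2F1 has no bar for qPRO-seq 250k.

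The lists divided at least 1 start region into different numbers of peaks at 7 of the 10 members: E2F1, E2F2, E2F3, E2F6, E2F8, RB1 and RBL1. RB1 held 1 start peak in each list and was counted through the qPRO-seq 1M peak 576 bp before its start. With joining within 20 bp RB1 was not counted. Of the 9 members with a start peak in all 3 lists, 6 did so, which is near the 60.5% of 8566 protein-coding genes that did. Start peaks 20 bp from a neighbour of the same list made up 11 of 18 in PRO-seq 1M (50.4% over all protein-coding genes), 10 of 19 in qPRO-seq 1M (56.9%) and 0 of 12 in qPRO-seq 250k (30.6%). A gene start inside a peak was found for 10 of 10 members in PRO-seq 1M (76.6% of protein-coding genes with a start peak), 9 of 10 in qPRO-seq 1M (76.5%) and 8 of 9 in qPRO-seq 250k (72.4%).

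Most start peaks were shared between lists. Of the PRO-seq 1M start peaks of members, 16 of 18 were overlapped by qPRO-seq 1M (92.3% over all protein-coding genes) and 12 of 18 by qPRO-seq 250k (68.9%). Of the qPRO-seq 1M start peaks, 15 of 19 were overlapped by PRO-seq 1M (83.1%) and 12 of 19 by qPRO-seq 250k (62.9%). Of the qPRO-seq 250k start peaks, 10 of 12 were overlapped by PRO-seq 1M (95.8%) and 12 of 12 by qPRO-seq 1M (98.1%). The peaks overlapped by neither other list were 2 in PRO-seq 1M, at E2F5 and E2F8 (background 6.8%), and 3 in qPRO-seq 1M, at E2F1, E2F2 and E2F6 (14.2%). In qPRO-seq 250k there were 0 of 12 (0.976%), and so 0 with a peak of another list close by (0.124%). Edges at the very same base were seen for 5 of the 16 PRO-seq 1M start peaks overlapped by qPRO-seq 1M, against 11.0% over all protein-coding genes, at E2F2, E2F4, E2F8 and both starts of E2F3. With qPRO-seq 250k such edges were shared at E2F2 and E2F8, by 2 of 12 overlapped PRO-seq 1M start peaks (8.07%) and 2 of 12 of qPRO-seq 1M (8.96%).

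Distal peaks near the members numbered 10 in PRO-seq 1M, 22 in qPRO-seq 1M and 3 in qPRO-seq 250k. They lay near 3 members in PRO-seq 1M (background 40.0% of protein-coding genes), 6 in qPRO-seq 1M (61.6%) and 1 in qPRO-seq 250k (26.0%). The median number per gene was 0, 1 and 0, for the members as for all protein-coding genes. E2F4, E2F5, E2F6 and E2F8 had none in any list. E2F2 had 7, 8 and 3, and E2F3 had 2, 8 and 0, so these activators held most of the family's distal peaks.

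**Figure D3:**
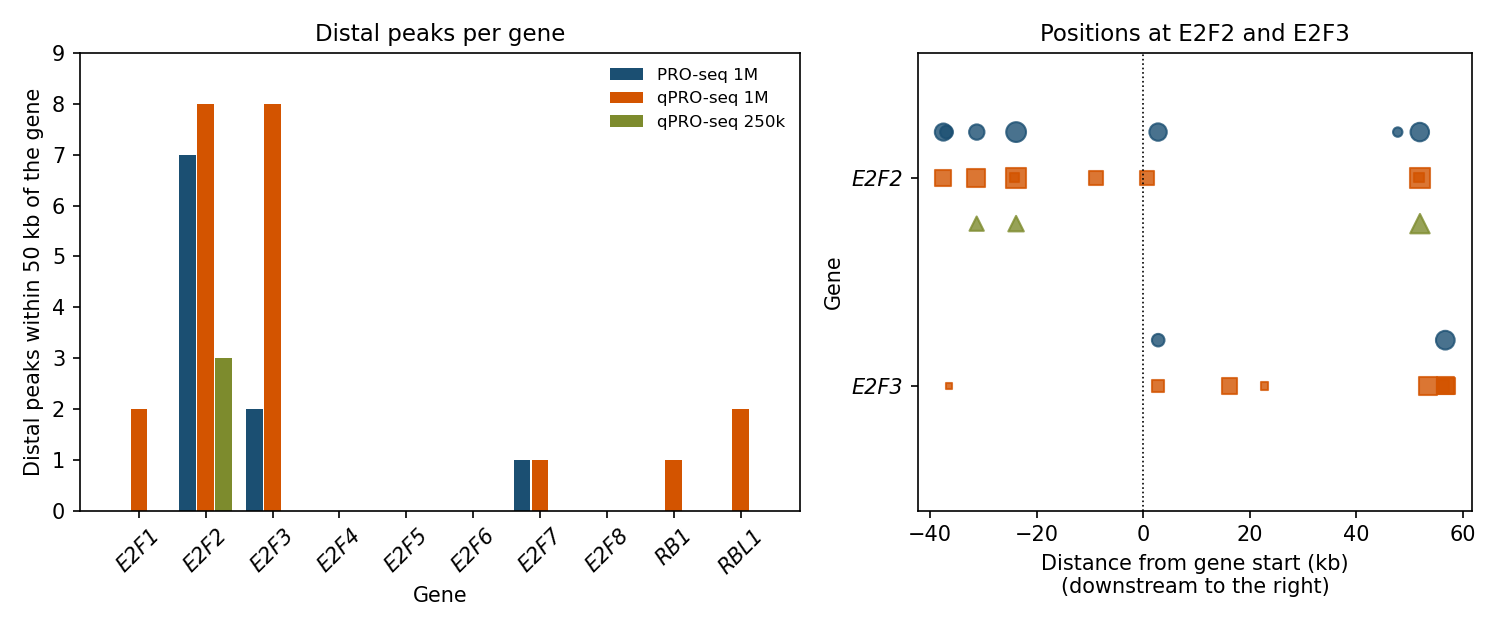
Left, number of distal peaks within 50 kb of each member in each list. Right, position of each distal peak of E2F2 and E2F3 by distance from the gene start (kb, downstream to the right), with colour and shape for the list as in the left panel's colours and larger markers for higher score percentiles within the list. E2F2 is flanked on both sides by peaks of all 3 lists, and at E2F3 the peaks past 50 kb belong to the 1M lists.

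Joined over the lists, the distal peaks formed 22 regions. By distal peaks only, 3 were in all lists, 4 in both 1M lists, 12 in qPRO-seq 1M alone and 3 in PRO-seq 1M alone. Peaks near starts were left out of this count. The PRO-seq 1M region at 23483191 to 23483600 on chromosome 1 was overlapped by a qPRO-seq 1M peak near a start of ASAP3. The qPRO-seq 1M region at 23530331 to 23530620 was overlapped by the weak qPRO-seq 250k start peak of E2F2. The 3 regions in all lists were all beside E2F2. The first, at 23478911 to 23479480 on chromosome 1, lay in an intron of ASAP3, with percentiles of 78.7, 97.1 and 87.4 in the PRO-seq, qPRO-seq 1M and qPRO-seq 250k lists. Its top-scored peak lay 799 bp from the nearest annotated start, that of ASAP3, and 27050 bp from the E2F2 gene body. The second, at 23554781 to 23555590, was intergenic, with 91.4, 87.5 and 52.5. The third, at 23562221 to 23563520, was also intergenic, with 51.3, 74.1 and 43.4. For the last pair the nearest annotated start was that of ID3, an inhibitor of helix-loop-helix factors, at 3645 and 2427 bp, so they are nearer to ID3 than to E2F2. Nearness assigns no target.

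Inside E2F2 itself PRO-seq 1M held an intronic peak at 23528161 to 23528690 with percentile 68.4, which neither qPRO-seq list overlapped. Inside E2F3 both 1M lists held an intronic region at 20458391 to 20459300, with a PRO-seq 1M peak of percentile 80.7 and, in qPRO-seq 1M, a pair of peaks 20 bp apart of 64.8 and 60.9. qPRO-seq 1M alone held an intronic peak at 20455231 to 20455690 with percentile 70.0. In E2F7 an intronic peak had percentile 29.5 in PRO-seq 1M, centred 2540 bp into the gene, and 77.4 in qPRO-seq 1M, centred at 2510 bp, and was absent from qPRO-seq 250k. The E2F7 element and the E2F3 region at 20458391 to 20459300 were thus called from 1M cells by both protocols and not from 250k cells.

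The body of RB1 held no distal peak in any list over its 295711 bp. The peaks inside it stood at the start of another gene, RCBTB2, which lies within the annotated RB1 span, with percentiles of 96.9, 96.9 and 64.2 in the PRO-seq, qPRO-seq 1M and qPRO-seq 250k lists. The distal peaks of E2F1, RB1 and RBL1 were in qPRO-seq 1M alone and had percentiles between 6.1 and 25.3. That of RB1 lay 576 bp from a start of its own gene, and those of RBL1 lay 719 and 866 bp. They were therefore just past the start window. Of the distal peaks, 8 of 10 in PRO-seq 1M were overlapped by qPRO-seq 1M (86.9% over all distal peaks) and 10 of 22 in qPRO-seq 1M by PRO-seq 1M (42.4%). The 250k list overlapped 3 of the 10 (43.1%) and 4 of the 22 (24.4%). Its own 3 distal peaks were all overlapped, by PRO-seq 1M (80.2%) and by qPRO-seq 1M (93.3%).

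The edge of the start window decided a few cases. Just inside 500 bp lay a qPRO-seq 1M peak of E2F6 at 464 bp (percentile 48.9), a PRO-seq 1M peak of E2F3 at 449 bp (3.0), and qPRO-seq 1M peaks of E2F1 at 434 bp and E2F2 at 431 bp. Just outside lay qPRO-seq 1M peaks of RB1 at 576 bp, E2F2 at 600 bp and RBL1 at 719 bp (percentile 25.3). These were counted as distal peaks. When distal peaks had to have no annotated start within 1000 bp, they numbered 7 in PRO-seq 1M, 15 in qPRO-seq 1M and 2 in qPRO-seq 250k.

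The partners of the family were counted from lists of pathway genes, to be read beside the 52.9%, 54.5% and 44.0% of all protein-coding genes with a start peak in the 3 lists. Of 3 DP partners, TFDP1 had a start peak in every list, TFDP2 in both 1M lists and TFDP3 in none. The strongest start peak of TFDP2 had percentile 5.1 in PRO-seq 1M and 77.6 in qPRO-seq 1M. Whether the TFDP2 peaks lie at the same start was not checked. RBL2, the remaining pocket protein, had percentiles of 65.6, 89.3 and 77.9 in the PRO-seq, qPRO-seq 1M and qPRO-seq 250k lists. Of 6 MuvB and DREAM genes, whose complex joins E2F4 and pocket proteins at cell cycle promoters, 6, 6 and 5 had a start peak, with LIN37 missing from qPRO-seq 250k. Of 9 genes of the E2F6 repressor complex, 8, 8 and 5 had one: RING1 had none, and MAX, PCGF6 and RYBP were missing from qPRO-seq 250k, where 5 of 9 is near the 44.0% of all genes.

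Among 8 genes for the cyclins and kinases that phosphorylate RB1, 8, 7 and 8 had a start peak in the PRO-seq, qPRO-seq 1M and qPRO-seq 250k lists. CDK4 had percentiles of 40.1 in PRO-seq 1M and 48.0 in qPRO-seq 250k and no start peak in qPRO-seq 1M, the longest list. Of 7 genes for CDK inhibitors, 5, 4 and 4 had one, near the shares of all protein-coding genes (52.9%, 54.5% and 44.0%). CDKN2C, which encodes the CDK4 and CDK6 inhibitor p18, stood at 99.8, 99.4 and 96.6, while CDKN2A and CDKN2B had no start peak. CDKN1C, which encodes the inhibitor p57, had one in PRO-seq 1M alone, with percentile 10.8. Of 20 known E2F target genes, 20, 20 and 19 had one, with the replication factor MCM10 missing from qPRO-seq 250k, against the same 52.9%, 54.5% and 44.0%.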

How the data were processed

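Run-on libraries of 6 K562 samples were represented by 3 peak lists, 1 per group of 2 replicates, as the labels give them. Per the labels, the authors called the peaks with dREG. The submitters' processing notes name fastp 0.20.0, Bowtie2 2.3.5.1, UMI-tools, deepTools 3.1.3 and the build GRCh38 (hg38). Libraries carried molecular identifiers of 6 nt and were read for 37 nt. The dREG version, its thresholds and how replicates were combined are not given in the sources used here. The score of each peak is a deposited value with no unit, and the deposited p-value, which is exactly 0 at 6, 7 and 2 of the members' start peaks in the PRO-seq, qPRO-seq 1M and qPRO-seq 250k lists, is not stated to be adjusted. Positions are in other deposited columns, on a grid of 10 bp, and were converted to count from 1.

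The members and pathway lists were chosen with earlier results of these data known. All 10 members were named, and pathway genes were named where a list lacked a start peak or as examples chosen after their values were seen. Some of the cell type markers looked up are not reported here, so the markers named are not the full lists. Genes and transcript starts were those of GENCODE release 29. Percentiles are mid-ranks of the score among peaks on chromosomes 1 to 22 and X. Peaks of different lists matched when they shared at least 1 bp. A start region joined start peaks of any list, with peaks within 50 bp of them, and was divided differently when the lists with a peak there held different numbers. Backgrounds were the same counts over 19864 protein-coding genes. Scripts used Python 3.11.15, pandas 2.3.3, NumPy 2.4.6 and matplotlib 3.10.9, and the attachment of peaks to genes was tested on simulated data, with layouts of 200 genes. With 1 list per group no test between groups was made. Alternatives covered the window, the score and p limits, list size, merging and the measure of overlap.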

Additional observations from a re-analysis of the deposited data

How the results depend on the processing

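No paired analysis was possible because each list combines both replicates of its group, and for the same reason no replicate could be left out. Of 103 alternative values of the main counts and medians, 76 stayed close and 27 moved. For counts the band called close was wide. At p of 0.01 or less, members with a start peak in qPRO-seq 250k fell from 9 to 6, which counted as close. E2F4, E2F5 and RBL1 were lost there, and E2F4 also from PRO-seq 1M. With lists cut to equal size, also counted as close, E2F1 and E2F4 were lost from both 1M lists and RBL1 from qPRO-seq 1M. At or above the median score, members with a start peak in qPRO-seq 250k numbered 5, start peaks 11, 9 and 5 (PRO-seq 1M, qPRO-seq 1M, qPRO-seq 250k) and distal peaks 6 in PRO-seq 1M and 9 in qPRO-seq 1M. E2F1 and E2F4 were lost from all lists that held them, and E2F5, E2F8 and RBL1 from qPRO-seq 250k. With lists cut to equal size, qPRO-seq 1M had 8 start peaks, 8 PRO-seq 1M start peaks were overlapped by qPRO-seq 1M and 8 the other way, and distal peaks numbered 6 in PRO-seq 1M and 7 in qPRO-seq 1M. With peaks within 500 bp merged, PRO-seq 1M and qPRO-seq 1M had 11 start peaks each, and 1 member, E2F3, was divided differently (7.67% of protein-coding genes). E2F8 then had 1 peak in every list. With joining within 20 or 200 bp, or p of 0.01 or less, 6 members were divided differently, E2F8 among them each time. With centres within 100 bp as the match, PRO-seq 1M and qPRO-seq 250k shared 6 start peaks counted from either list, and qPRO-seq 1M and qPRO-seq 250k shared 7. Within 25 kb, distal peaks numbered 6 in PRO-seq 1M and 1 in qPRO-seq 250k, and within 100 kb 6 in qPRO-seq 250k. The median percentile of the strongest start peak was 77.0, 72.2 and 45.9 among peaks near starts and 75.0, 71.0 and 43.9 after merging. All 58 percentiles of single members counted as moved under these 2 settings, by a narrow limit set by list length. Among peaks near starts, this took in 98.8 to 98.5 for RB1 in PRO-seq 1M. It also took in 59.0 to 49.1 for RBL1 in qPRO-seq 1M. Without read counts, a peak missing from a list cannot be told apart from one too shallow to be called.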
